A study of Mus musculus with 4 samples.

Results

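Il6, Ccl2, Ccl7, Icam1, Il1r1 and Il33 are genes of inflammatory signalling in the vessel wall. They were described in C57BL/6J mouse aortic endothelial cells (MAECs), measured with the Affymetrix Mouse Gene 1.0 ST array. Each gene was taken as the row of the authors' deposited comparison table that carries its symbol, and was joined by probe set to the series value table. All 6 symbols were found, 1 probe set each, among 398 rows of that table and 35557 transcript clusters of the value table. A transcript cluster is a group of probes along a gene, summarised as 1 log2 value per array. The groups were hcatTg MAECs (2 arrays), which overexpress human catalase, the enzyme that turns hydrogen peroxide into water and oxygen, and wild type (WT) MAECs (2 arrays). Cells of both groups stood at 80% confluence in six-well plates, were held in DMEM without serum for 12 h, and were then given DMEM with 10% fetal bovine serum for 12 h. No inflammatory stimulus is named in the labels. The sources used here do not give the promoter of the transgene, the passage or the number of animals behind each culture, so the spread between arrays may be technical. The headers of the deposited table name a first and a second time for the fold change, without saying what sets the times apart. Array 1 of each genotype belongs to the first, and the second fold equals the difference between the arrays numbered 2. First and second time below mean these array pairs and no known date or batch.

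Interleukin-1 binds its receptor, the product of Il1r1, which then recruits the accessory protein encoded by Il1rap and signals through MyD88 and IRAK kinases to the transcription factor NF-kB. Known NF-kB targets in endothelial cells include Il6, which encodes a pleiotropic cytokine, Ccl2 and Ccl7, which encode monocyte-attracting chemokines, and Icam1, which encodes an adhesion molecule that leukocytes grip on the vessel wall. Il33 encodes a nuclear cytokine released from damaged cells, and its receptor, the product of Il1rl1 (ST2), pairs with the same accessory protein.

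The deposited table lists only probe sets that differed at least 2-fold, the same way at both times, its smallest fold being 2.004 in size. The members were thus chosen on the hcatTg and WT difference itself, and that difference is given as a description, with no test. On the deposited values all 6 were at least 2-fold lower in hcatTg in both array pairs, as were 1.18% of all clusters. This follows from the choice. Icam1 lay closest to the limit among the members, 2.05-fold lower at the second time. On the value table, 158 clusters passed this limit downwards without being listed, and 48 listed rows were under 2-fold at the first time, where the authors' signals have another normalization. Of the unlisted clusters short of the limit, the nearest was 1.999-fold lower in its smaller pair, and 74 clusters in all lay between 1.9-fold and 2-fold. Bulk arrays cannot tell fewer cells of a type from less RNA per cell.

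Promoter windows are shown for the members for which RefSeq (GRCm38.p6) gives a single window with a match to an NF-kB site. The windows shown were thus picked for a match, and a part of NF-kB in the members' levels was not tested. Each window holds 250 bases before and 50 bases after a start and is written 5′ to 3′ on the plus strand. Windows were found for 4 of the 6 members: 1 each for Il6 and Icam1, and 2 each for Il1r1 and Il33. Capitals mark matches on either strand to the NF-kB consensus, to GGAAATTCC (the form of the NF-kB site known from the human ICAM1 promoter), to the AP-1 motif TGANTCA or to the C/EBP motif TTNNGNAAT.
Il6, chr5:30012864-30013163: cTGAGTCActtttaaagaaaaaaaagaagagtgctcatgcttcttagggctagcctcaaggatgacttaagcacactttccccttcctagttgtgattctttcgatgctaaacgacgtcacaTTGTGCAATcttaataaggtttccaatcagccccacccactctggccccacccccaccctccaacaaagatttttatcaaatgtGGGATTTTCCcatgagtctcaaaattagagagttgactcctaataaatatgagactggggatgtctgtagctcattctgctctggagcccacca
Icam1, chr9:21015690-21015989: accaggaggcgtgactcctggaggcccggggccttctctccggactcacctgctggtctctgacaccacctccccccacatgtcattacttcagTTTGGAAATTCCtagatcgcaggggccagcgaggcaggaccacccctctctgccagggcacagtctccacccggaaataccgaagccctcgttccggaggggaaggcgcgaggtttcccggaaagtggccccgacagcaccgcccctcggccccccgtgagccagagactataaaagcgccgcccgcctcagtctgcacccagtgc

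The Il6 window held GGGATTTTCC, a match to the NF-kB consensus, 34 bases before the start, which 8.46% of all 32851 windows in the table match. It also held TGAGTCA, 242 bases before the start, and TTGTGCAAT, 119 bases before it. TGANTCA occurred in 7.81% of all windows and TTNNGNAAT in 11.5%. The Icam1 window held GGAAATTCC 144 bases before the start, a sequence found in 0.317% of all windows, and an overlapping TTNNGNAAT match (TTTGGAAAT). It held no match to the NF-kB consensus, and 8.61% of all windows match GGAAATTCC or that consensus. The second Il1r1 window held the NF-kB consensus on the minus strand (GGAATGCCCC as read on the plus strand), overlapping a TTNNGNAAT match. The first Il1r1 window held a TTNNGNAAT match alone. Neither Il33 window held a match to any of these motifs. Which start each probe set reports was not analysed here, and a match of letters is not a bound site.

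Averaged over both times, Il33 and Il6 had the largest differences of the 6, though at the first time Ccl2 (-2.51) and Il6 (-2.49) were nearly equal. Il33 had 5.42 and 5.37 on hcatTg arrays 1 and 2, against 8.32 and 9.53 on WT arrays 1 and 2 (deposited log2 values). Both hcatTg arrays were low and nearly alike on this scale, while the WT arrays lay well above them. Relative to the median of the same array, Il33 had 0.02 and -0.63 in hcatTg, and 2.57 and 3.51 in WT. Il33 averaged 5.40 ± 0.0345 in hcatTg and 8.92 ± 0.856 in WT (SD, n = 2 each), a difference of -3.53 log2 units, or 11.5-fold lower. At the second time Il33 differed by -4.16 (17.8-fold lower), and at the first time by -2.90 (7.45-fold lower). Among the 398 listed rows, 11 had a lower mean difference than Il33, which ranked 12 from the bottom.

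Il6 had 3.92 and 5.37 on hcatTg arrays 1 and 2, against 6.41 and 8.12 on WT arrays 1 and 2. Relative to the median of all clusters on the same array these values were -1.48 and -0.63 in hcatTg, and 0.67 and 2.10 in WT. The hcatTg level of Il6 was thus in the lower part of both arrays, and whether it stood above background was not analysed here. Il6 averaged 4.65 ± 1.03 in hcatTg and 7.27 ± 1.21 in WT (SD, n = 2 each), 6.14-fold lower in hcatTg. Its pair differences were close to each other, at -2.49 and -2.74.

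The chemokine genes Ccl2 and Ccl7 stand next to each other in the RefSeq gene order, with 0 protein-coding genes between them. Ccl2 had 5.74 and 6.95 on hcatTg arrays 1 and 2, against 8.25 and 8.59 on WT arrays 1 and 2. Ccl7 had 6.31 and 7.48 on hcatTg arrays 1 and 2, against 8.32 and 9.84 on WT arrays 1 and 2. Both genes were lower on each hcatTg array than on either WT array, though the times differed: Ccl2 differed more at the first time (-2.51, against -1.64 at the second) and Ccl7 more at the second (-2.36, against -2.01 at the first). On average Ccl2 was 4.20-fold and Ccl7 4.55-fold lower in hcatTg. The chemokines are similar in sequence, and whether their probes are free of cross-hybridisation was not tested.

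Il1r1, the interleukin-1 receptor gene, had 5.43 and 6.93 on hcatTg arrays 1 and 2, against 7.46 and 8.56 on WT arrays 1 and 2. The groups were apart by 0.54 log2 units, and Il1r1 was 4.09-fold and 3.10-fold lower in hcatTg at the first and second time. It averaged 6.18 ± 1.06 in hcatTg and 8.01 ± 0.774 in WT (SD, n = 2 each).

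Icam1 had 6.66 and 7.76 on hcatTg arrays 1 and 2, against 7.87 and 8.80 on WT arrays 1 and 2. The second hcatTg array came within 0.11 log2 units of the first WT array, so for Icam1 the groups were hardly apart on the deposited values. That gap was 0.757 after quantile normalization and 0.369 after centring each array on its median. It averaged 7.21 ± 0.778 in hcatTg and 8.33 ± 0.656 in WT (SD, n = 2 each), 2.18-fold lower in hcatTg, the smallest difference of the 6. The difference within each time was steady, at -1.21 and -1.04.

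**Figure D1:**
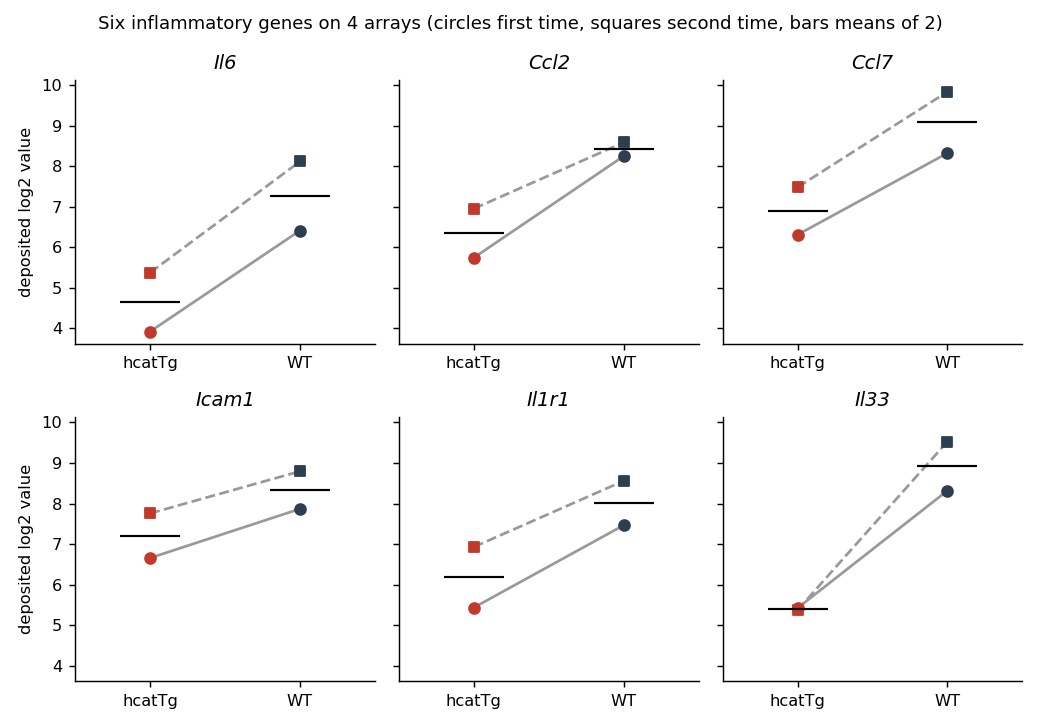
Deposited log2 values (y axis) of the 6 genes in hcatTg (left, red) and WT (right, dark) MAECs, with circles for the first time, squares for the second, lines joining arrays of the same time and bars for the mean of 2 arrays. Every gene has both hcatTg arrays below both WT arrays, with the widest gap for Il33 (2.90) and the narrowest for Icam1 (0.11).

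For all 6 members both hcatTg arrays lay below both WT arrays, as they did for 17.8% of all clusters, and the choice of members favours this. The median difference of the members was -2.26 for the first pair and -1.996 for the second, and that of the 398 listed rows was -1.27 and -1.38. The median of all clusters was -0.37 and 0.01. The first hcatTg array was thus lower as a whole, and each member's first difference includes this shift. With every array centred on its median, the members differed by -2.55 to -0.86 at the first time and by -4.14 to -1.02 at the second. Averaged over both times, the centred differences were -3.34 for Il33, -2.44 for Il6, -2.003 for Ccl7, -1.89 for Ccl2, -1.65 for Il1r1 and -0.94 for Icam1. On the deposited values, leaving out an array moved 3 of the mean differences by more than 1.5 times. Without hcatTg replicate 1 Icam1 differed by -0.57 and Il1r1 by -1.08, and without WT replicate 2 Icam1 differed by -0.66 and Ccl7 by -1.43.

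**Figure D2:**
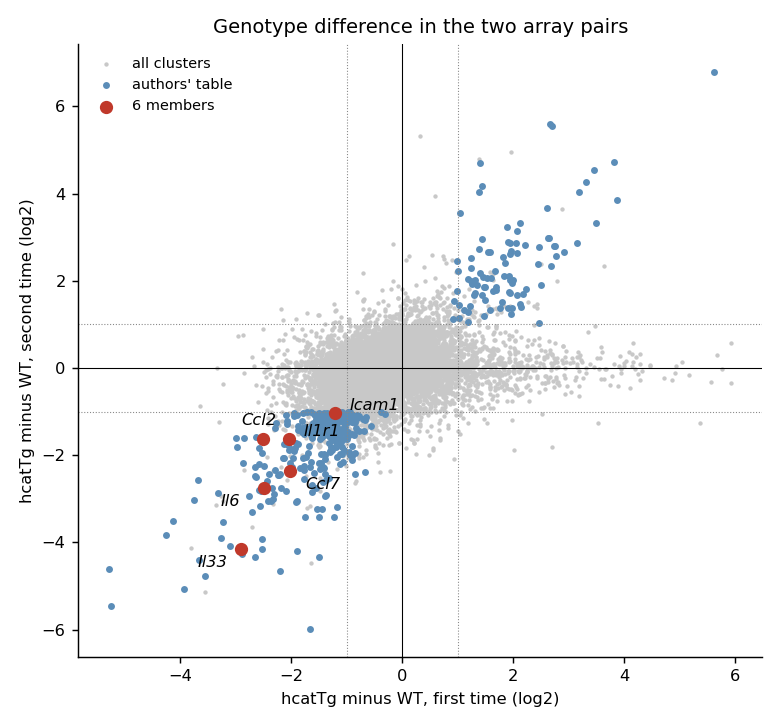
Difference of hcatTg minus WT (log2) at the first time (x axis) and the second time (y axis) for all 35557 clusters (grey), the 398 rows of the authors' table (blue) and the 6 members (red), with dotted lines at 2-fold. Il33 lies farthest from 0 (-2.90 and -4.16) and Icam1 nearest to 0 among the members (-1.21 and -1.04).

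In limma (lmFit and eBayes, Benjamini-Hochberg) on the deposited values, 3 of 35557 clusters had an adjusted p below 0.05, which is 0.00844%. None of the 6 members was among them, and 5 had an unadjusted p below 0.05, as did 643 clusters (1.81%). With the array pair (first or second time) as a block, 1161 clusters were called (3.27%). Of these, 764 were lower in hcatTg (2.15% of all clusters), and 6 of the 6 members were among them. With median centring added to the block 24 clusters were called (0.0675%), 0 of them members, all 6 of which had an unadjusted p below 0.05, as did 4211 clusters (11.8%). Since the members were chosen on the same contrast, these counts describe the fits and are no evidence for the members.

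The authors' deposited table gives the first arrays on another normalization, in which the members' levels were 4.84 to 7.50 in hcatTg and 7.37 to 9.07 in WT. In the authors' deposited table the log2 ratio of hcatTg over WT at the first time was -3.21 for Il33, -2.69 for Ccl2, -2.52 for Il6, -2.29 for Ccl7, -2.02 for Il1r1 and -1.29 for Icam1. Against the value table, this moved Il33 most, by -0.31 log2 units, and Il1r1 least, by 0.02.

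The change between times within a genotype was not itself used to choose the members. The hcatTg change less the WT change, though, equals the second pair difference less the first, and both pair differences were used. In hcatTg, Il6, Ccl2, Ccl7, Icam1 and Il1r1 were 1.10 to 1.49 log2 units higher on the second array than on the first, and Il33 differed by -0.05. In WT all 6 were higher on the second array, by 0.34 (Ccl2) to 1.705 (Il6). All clusters had a median change of 0.60 in hcatTg and 0.21 in WT, and 60.4% of them were higher on the second array in both genotypes. The size depended on scale: after quantile normalization the members' median change was 0.42 in hcatTg and 0.45 in WT, against 1.19 and 1.15 on the deposited values. Under quantile normalization Il33 was lower on the second array in hcatTg (-0.60) and higher in WT (0.49), whereas Ccl2 was higher in hcatTg (0.48) and lower in WT (-0.37). There was 1 array per genotype and time, so these changes have no replicate.

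Of 121 genes on 7 lists of inflammatory signalling, 16 were named in the authors' table, the 6 members and 10 others. That table holds 398 of the 35557 clusters, and the lists were written with earlier results of these data known. Names came only from that table, which was chosen on these arrays, so a gene outside it was not analysed here. Of the 10 others, 7 were lower in hcatTg and 3 higher, where 305 of the 398 listed rows (76.6%) were lower. The median difference of the 10 was -1.49, near the median of -1.36 over the 398 listed rows. The median of all clusters was -0.18. None of the 10 had a limma adjusted p below 0.05, and 7 had an unadjusted p below 0.05, as did 1.81% of all clusters. With the time as a block 10 of the 10 were called, against 3.27% of all clusters, and 0 once median centring or quantile normalization was added. The listed rows were chosen on the same contrast, which favours such calls. These counts describe the fits and are no evidence for the 10 genes.

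The IL-1 family receptor list had 3 of its 20 genes in the table, and they went in both directions. Il1rap, which encodes the accessory protein shared by the interleukin-1 and interleukin-33 receptors, had 6.26 and 7.07 on hcatTg arrays 1 and 2, against 7.57 and 8.62 on WT arrays 1 and 2. Like Il1r1 it was lower on both hcatTg arrays than on either WT array, by 2.70-fold on average, a mean difference of -1.43 that was -0.91 without WT replicate 2. Il1rl1, the gene of the interleukin-33 receptor ST2, had 7.83 and 8.76 on hcatTg arrays 1 and 2, against 5.92 and 5.87 on WT arrays 1 and 2. Il1rl1 was thus 3.74-fold higher in the first pair and 7.42-fold higher in the second, while its ligand gene Il33 was 7.45-fold and 17.8-fold lower. In the RefSeq gene order Il1rl1 stands beyond Il1r1 with 1 protein-coding gene, Il1rl2, between them. Both hcatTg arrays lay above both WT arrays in 2.53% of all clusters, Il1rl1 being among them.

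Of the 31 cytokine and chemokine genes, 5 were in the table and 5 were lower in hcatTg, as were 76.6% of the listed rows. Of these 5 genes 4 were members. The other was Tslp, which encodes a cytokine of epithelial and stromal cells. It had 3.53 and 4.74 on hcatTg arrays 1 and 2, against 5.09 and 6.12 on WT arrays 1 and 2, so the hcatTg arrays and the first WT array were below their array medians. Its mean difference was -1.48, and it was -0.87 without hcatTg replicate 1 and -0.96 without WT replicate 2. Of the 13 adhesion genes, Icam1 was lower and F11r, which encodes a junctional adhesion molecule of endothelium and epithelium, was higher. F11r had 8.82 and 10.43 on hcatTg arrays 1 and 2, against 7.51 and 8.72 on WT arrays 1 and 2, with the groups apart by 0.09 log2 units. Its mean difference of 1.51 was 0.90 without WT replicate 1, 0.70 without hcatTg replicate 2 and 2.31 without hcatTg replicate 1. Of the 21 NF-kB list genes the table named only Ptgs2, the inducible cyclooxygenase gene, which averaged 12.09 ± 0.487 in hcatTg and 10.14 ± 0.0928 in WT (SD, n = 2 each), 3.87-fold higher. Like Il6, Ptgs2 is a known NF-kB target, and the pair lay on opposite sides of 0 at both times. Both genes come from a table chosen on this contrast, and a part of NF-kB in their levels was not tested.

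Of the 14 genes on the list for the IL-6 receptor, STAT3 and their targets, 5 were in the table. All 5 were lower in hcatTg, as were 76.6% of the listed rows, and the 5 had a median difference of -2.46. That median was -0.50 without WT replicate 2, with 4 of the 5 lower, -0.95 without hcatTg replicate 1 and -3.27 without WT replicate 1. Lifr, which encodes a receptor of the IL-6 cytokine family, had 5.05 and 5.26 on hcatTg arrays 1 and 2, against 7.60 and 8.43 on WT arrays 1 and 2. It was apart between the groups by 2.34 log2 units, and no left-out array moved its mean difference of -2.86 by over 1.5 times. The acute-phase genes were unequal between times. Lcn2, which encodes an iron-scavenging lipocalin, had 4.004 and 4.59 on hcatTg arrays 1 and 2, against 5.67 and 10.58 on WT arrays 1 and 2. Its difference was -1.66 in the first pair and -5.98 in the second, and the second WT array set its size: without that array the mean difference was -1.37, against -3.82 with it, and without WT replicate 1 it was -6.28. Saa3, a serum amyloid gene, differed by -1.49 and -3.42, C3, the central complement gene, by -1.42 and -2.29, and Cebpd, a transcription factor gene of the acute-phase response, by -0.90 and -2.10. For these 3 genes the hcatTg and WT values overlapped between times. Without WT replicate 2 the mean difference was 0.0643 for Saa3, the direction turning, -0.50 for C3 and -0.36 for Cebpd, against -2.46, -1.85 and -1.501 with all arrays. Without hcatTg replicate 1 it was -0.90 for Saa3, -0.94 for C3 and -0.95 for Cebpd, and without WT replicate 1 it was -4.98, -3.21 and -2.65. Saa3 also moved without hcatTg replicate 2, to -4.01. The lists of 11 chemokine receptors and 11 Toll-like receptor genes had 0 members in the table.

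**Figure D3:**
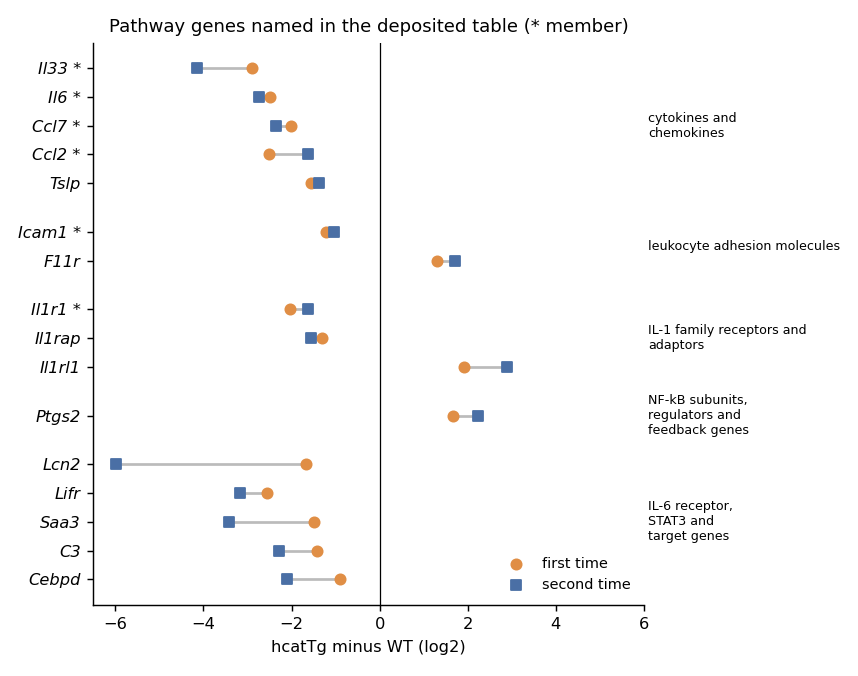
Difference of hcatTg minus WT (log2, x axis) at the first time (circles) and second time (squares) for the 16 listed inflammatory genes, grouped by list, with members starred. The genes to the right of 0 are Il1rl1, Ptgs2 and F11r, and the other 13 lie to the left.

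The named clusters most like each member were found by Euclidean distance between profiles of the 4 arrays, each minus its own mean, in log2 units. These profiles have 4 points and come from a table chosen for 1 pattern, so small distances are common. Il6 was closest to Epha4 (0.171), Pkia (0.205) and Ccl7 (0.495), the only member among the closest 3 of another. Ccl2 was closest to Fads3 (0.400), Gucy1a2 (0.401) and Nsg1 (0.431). Ccl7 was closest to Nexn (0.229), Gfpt2 (0.252) and Cacna1g (0.270). Neither chemokine gene was among the closest 3 of the other, their distance being 0.839. Icam1 was closest to Lmo7 (0.0591), Bicc1 (0.0854) and Rnd3 (0.121), and Il1r1 to Svep1 (0.222), Gucy1a2 (0.254) and Ror1 (0.290). Il33 was closest to Tbx20 (0.280), Uty (0.366) and Tcf21 (0.492). Among the members, Il33 stood farthest from the rest, at 1.44 to 2.54 from each.

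Other genes moved along with the genotype. Uty is Y-linked, and the sex-linked genes differed throughout: Xist had 10.33 and 11.45 on hcatTg arrays 1 and 2, against 4.71 and 4.66 on WT arrays 1 and 2, and the Y-linked Ddx3y at 3.85 and 4.79 on hcatTg arrays, against 9.09 and 10.24 on WT arrays. An effect of catalase and an effect of sex cannot be told apart here. Of the 14 endothelial markers 2 were named, Kdr higher by 2.31 on average and Eng with a mean difference of -1.31. Kdr was unequal between times, at 1.05 and 3.57, and Eng had -1.17 and -1.44. Kdr lay below the array median on both WT arrays. Of the 10 smooth muscle markers 4 were named and 4 were lower, as were 76.6% of the listed rows. The summed log2 values of the 4 were 20.4 and 25.0 on hcatTg arrays 1 and 2, against 26.6 and 35.5 on WT arrays 1 and 2. Among 12 markers of macrophages and leukocytes, Cd53 was 5.51-fold higher on average, and Lcp1 5.04-fold and Lyz2 3.69-fold lower. By time, Cd53 was 4.15-fold and 7.32-fold higher, Lcp1 2.71-fold and 9.39-fold lower, and Lyz2 3.81-fold and 3.57-fold lower. Opposite changes cancel in their sums, which were 16.5 and 18.6 on hcatTg arrays, against 17.8 and 20.8 on WT arrays. Of the 10 fibroblast markers Mmp2 was 8.05-fold higher and Fbln1 4.45-fold lower. Their sums, in which these changes cancel, were 16.8 and 18.8 on hcatTg arrays, against 15.2 and 18.7 on WT arrays. Of the 10 mesothelial and epithelial markers Msln was 5.71-fold and Upk1b 6.79-fold higher, and Wt1 2.55-fold and Upk3b 6.41-fold lower. Their sums, in which these changes cancel, were 31.8 and 30.6 on hcatTg arrays, against 30.1 and 29.8 on WT arrays. The part of these cell types in the members' differences was not tested.

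**Figure D4:**
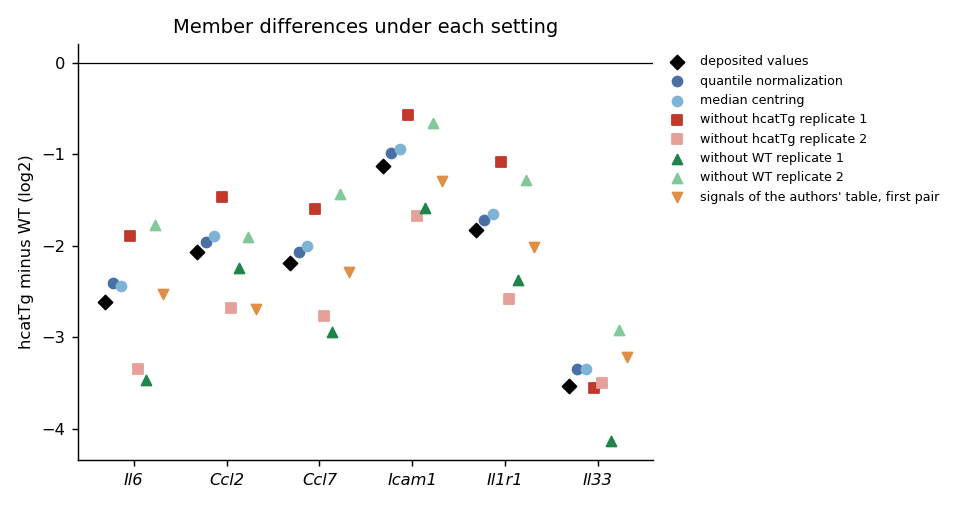
Difference of hcatTg minus WT (log2, y axis) for each of the 6 members on the deposited values, after 2 normalizations, without each array in turn and with the authors' signals for the first pair. Every value lies below 0, and Icam1 comes closest to it, at -0.57 without hcatTg replicate 1.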

How the data were processed

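The 4 arrays were grouped by the genotype in their titles. The series value table was deposited as log2 values made with Affymetrix Expression Console, per the submitters' processing notes; the sources used here do not give its version, annotation or build. Array medians were 5.40 and 6.00 for hcatTg replicates 1 and 2, and 5.75 and 6.02 for WT replicates 1 and 2. The authors' deposited table holds log2 RMA signals, a log2 ratio, a linear ratio and signed fold changes (negative for WT over hcatTg), per the file headers. Its second fold equals the value table's difference to within 9e-05 log2 units. Its symbols were updated by accession through RefSeq (385 of 398 matched, 41 to another symbol).

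Differences are hcatTg minus WT. All clusters were fitted with limma 3.58.1 in R 4.3.3, at an adjusted p of 0.05. The fit was also run on simulated data with independent noise, as a check of the code. The same-time arrays here were correlated, so the simulation does not show how the fit behaves on these data. An exact permutation of 2 against 2 arrays cannot reach that threshold. The times in the file headers pair the arrays, and deviations of same-time arrays correlated at r = 0.689 across clusters. The number of arrays limits the precision. Alternatives were quantile normalization, median centring, the time block, a filter on level, an intensity trend, a threshold of 0.1, and leaving out each array. The members, the lists and the tests were chosen with earlier results of these data known. Named genes are the members, every list gene in the table and the 3 profiles nearest to each member. Genes of the cell type lists and sex-linked genes were added as context.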

Additional observations from a re-analysis of the deposited data

How the results depend on the processing

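All 6 members stayed lower in hcatTg under each of the 7 alternatives run on their differences, with medians of -2.01 after quantile normalization and -1.95 after median centring, against -2.13 on the deposited values. Without one array the median ranged from -2.72 to -1.53, and Icam1 from -1.68 to -0.57, its smallest size being without hcatTg replicate 1. Of the 10 other listed inflammatory genes, a check added after seeing the data found that Saa3 turned direction without WT replicate 2 (its range without one array was -4.98 to 0.0643), and the other 9 kept theirs without each array. The limma count of 3 clusters was not stable, and the cause was not tested. It was 0 after quantile normalization or median centring (1253 and 975 at an unadjusted p below 0.05), 42 with an intensity trend, 8 at a threshold of 0.1 and 1161 with the replicate block. Chosen after seeing the data, the replicate block with median centring gave 24 and with quantile normalization 0 (4189 with unadjusted p below 0.05). With each array left out in turn the count was 0 to 192, with 103 clusters and 3 members called without WT replicate 1, 192 clusters and 1 member without WT replicate 2, and 0 without either hcatTg array (440 and 1340 with unadjusted p below 0.05). These fits assume that the single array left in a group varies as the other group does. The intensity trend called 1 member among its 42 clusters. Each of the fits without an array, and the intensity trend, tested 35557 clusters. The members were chosen on the same hcatTg and WT contrast. Their counts in this section thus describe the fits and are no evidence for the members. Clusters at least 2-fold lower at both times fell to 267 with median centring, against 419 on the deposited values. Whether the hcatTg values of Il6 and Il33 stand above background was not analysed.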
